A study of Mus musculus with 8 samples.

Results

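Genes for the proteins of the mitochondrial ribosome were taken from the deposited expression table by symbol, as all names that begin with Mrpl (large subunit) or Mrps (small subunit) and a number. The table held 78 of them among 13677 genes, 49 with an Mrpl and 29 with an Mrps symbol, on 17 chromosomes. A single further name, the pseudogene Mrpl23-ps1, was left out by the same rule. The study measured polyadenylated RNA of mouse ventricular heart tissue, in a model in which Cre recombinase is driven by Wt1, a gene of the epicardium, the outer cell layer of the heart. Vhl, the gene it removes, encodes the part of a ubiquitin ligase that marks hypoxia-inducible factors for breakdown. The libraries carry the labels C (n = 3), KO (n = 2, numbered 1 and 3) and DKO (n = 3), and none of the tissue was treated before extraction. The protocol names Vhl-KO and wild-type mice. The labels do not say what the second change in DKO is, which alleles each group carries, whether the C mice carry the Cre, or the age and sex of the mice. No label ties the libraries of a group to different animals. The spread behind each p-value is thus that between libraries, and it may be technical.

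The mitochondrial ribosome translates the few messenger RNAs of the mitochondrial genome, which encode core subunits of the respiratory chain and the ATP synthase. Its ribosomal RNAs are transcribed inside the organelle, whereas all of its proteins are encoded in the nucleus, made in the cytosol and imported. Some have counterparts in bacterial ribosomes, and others are found only in mitochondria. Heart muscle is rich in mitochondria and relies on respiration, so it needs these proteins in quantity.

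The libraries held between 15028176 and 21202385 reads assigned to genes, and no member had fewer than 34 reads in any library. All 78 members passed the filter on low values and were tested. The deposited unit is a signal, reads divided by an effective library size, and the scaling factors behind that size were 1.37 and 1.36 in the KO libraries, 0.925 to 0.964 in C and 0.705 to 1.06 in DKO. Transcripts of the mitochondrial genome took 25.5% ± 3.07 (SD, n = 3) of reads in C, 16.8% ± 0.811 (SD, n = 2) in KO and 31.5% ± 9.46 (SD, n = 3) in DKO, with 41.6% in DKO 2. In DKO 2 the 10 genes with the most reads held 51.5% of the total, while elsewhere such genes held 22% to 38.1%. Vhl itself had a signal of 8.97, 7.50 and 7.26 in C, 8.33 and 8.96 in KO and 11.2, 10.9 and 8.61 in DKO, so neither KO nor DKO had a lower whole-gene level than C. Neither the position of the deletion in the transcript nor the share of the tissue's cells that carry it is given. This level therefore does not check the labels, and the groups are named here as labelled.

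Before the expression values, the stretches upstream of 3 members are shown. Members that differ between KO and C on the deposited scale can then be set beside one that differs little there. Mrpl14 and Mrps21 had the largest fold changes between KO and C. Mrpl9 had one near zero, with a KO mean at 102.7% and a DKO mean at 81.3% of its C mean. Each sequence is the 250 bases before the RefSeq transcription start (build GRCm38.p6), read 5′ to 3′ on the gene's own strand. Capitals mark a match, on either strand, to 1 of 3 short motifs. CCGGAAG is the core bound by ETS factors such as GABP. GCGCA and GCGC with any 1 base between them is the core bound by NRF1. ACGTG is 1 form of the core of the element bound by hypoxia-inducible factors, and other forms were not searched. ETS factors and NRF1 are known regulators of nuclear genes for mitochondrial proteins. The Mrpl14 stretch lies at chr17:45686099-45686348 on the plus strand and holds 1 ACGTG core. The Mrps21 stretch lies at chr3:95871515-95871764 on the minus strand and holds 1 NRF1 core. The Mrpl9 stretch lies at chr3:94443086-94443335 on the plus strand and also holds 1 NRF1 core.
Mrpl14: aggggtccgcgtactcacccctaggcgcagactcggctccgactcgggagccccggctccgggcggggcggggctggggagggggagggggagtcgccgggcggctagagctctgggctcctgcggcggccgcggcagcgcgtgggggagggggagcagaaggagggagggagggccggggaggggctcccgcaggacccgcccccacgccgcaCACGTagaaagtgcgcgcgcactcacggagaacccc
Mrps21: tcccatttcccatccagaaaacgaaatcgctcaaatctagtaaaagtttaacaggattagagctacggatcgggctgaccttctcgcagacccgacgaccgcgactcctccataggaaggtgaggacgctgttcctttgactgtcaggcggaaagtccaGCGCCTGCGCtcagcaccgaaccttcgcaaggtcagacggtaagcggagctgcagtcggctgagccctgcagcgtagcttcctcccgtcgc
Mrpl9: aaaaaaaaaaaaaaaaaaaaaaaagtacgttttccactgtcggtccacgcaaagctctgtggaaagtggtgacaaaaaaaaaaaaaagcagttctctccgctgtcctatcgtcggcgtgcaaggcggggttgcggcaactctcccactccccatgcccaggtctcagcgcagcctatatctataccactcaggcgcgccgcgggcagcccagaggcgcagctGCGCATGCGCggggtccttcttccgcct

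RefSeq sequences were matched for 69 of the 78 members. The ETS core was present upstream of 18 of the 69 (26.1%), against 15.2% of the 10334 tested genes with a RefSeq sequence and 7.83% of all 27025 genes in the RefSeq set. The NRF1 core was present in 10 of 69 (14.5%), against 9.08% and 4.23%. The ACGTG core was present in 14 of 69 (20.3%), against 24.8% and 18.5%. Among the 33 matched members that were called lower in KO than in C, described next, 10 held the ETS core, 3 the NRF1 core and 6 the ACGTG core. Among the 36 matched members without that call the numbers were 8, 7 and 8. A match describes the letters in this window and is not a binding site.

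The KO libraries were compared with C to see how these genes stand in the ventricles labelled KO. On the deposited scale, 37 of the 78 members (47.4%) were lower in KO than in C and none was higher, where 7.01% of all 13544 genes tested were lower and 6.9% higher (limma on log2(signal + 1), Benjamini-Hochberg adjusted p under 0.05). The median log2 fold change was -0.55 (interquartile range -0.72 to -0.28), against 0.01 over all genes, and it was negative for 74 of the 78 members and for 49.3% of all genes. For 66 of the 78 members both KO libraries lay below all 3 C libraries, against 26.7% of all genes. The summed signal of the 78 was 4874, 4811 and 4645 in the C libraries and 3224 and 3000 in KO. In bulk tissue, fewer cells of a type and less RNA per cell cannot be told apart.

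The size of that difference and the number and direction of the calls depended on how the libraries were scaled, while the median stayed negative under the alternatives run. When the libraries were scaled to their total reads, only 5 members were called, 3 higher and 2 lower, and the median was -0.04, while the median of all genes moved to 0.48 and the calls over all genes went from 934 higher and 949 lower to 4611 higher and 195 lower. With scaling to reads outside the mitochondrial genome, 2 members were called higher and 6 lower, the members' median was -0.20 and that of all genes 0.35, with 3689 genes higher and 372 lower. Relative to the median of all genes, the members' median was -0.56 on the deposited scale, -0.52 with total reads and -0.55 with reads outside the mitochondrial genome. As a share of all reads, the members took 0.449% ± 0.0161 (SD, n = 3) in C and 0.425% ± 0.0244 (SD, n = 2) in KO. Of reads outside the mitochondrial genome they took 0.603% ± 0.00518 (SD, n = 3) and 0.511% ± 0.0243 (SD, n = 2). Leaving out a C library changed the number of calls more than the median. Without C 1, 11 members were called, and 14 each without C 2 or C 3. Over all genes 899, 1048 and 985 were called without C 1, C 2 and C 3, against 1883 with every library. Without KO 3 or KO 1, which leaves 1 KO library, the members' median was -0.45 or -0.60.

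**Figure D1:**
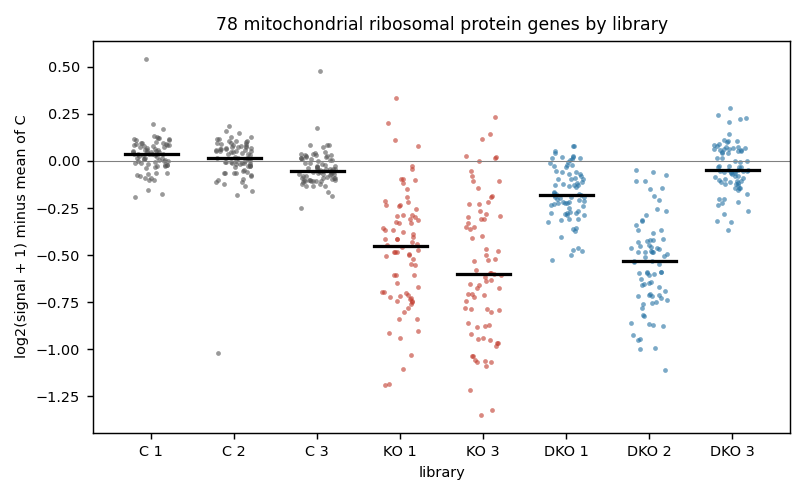
Each point is 1 of the 78 genes in 1 library, as log2(signal + 1) minus the mean of the 3 C libraries on the deposited scale, and the black bars are medians. The medians are -0.45 and -0.60 in the KO libraries and -0.18, -0.53 and -0.05 in DKO 1, 2 and 3; with scaling to total reads the KO minus C median is -0.04, and the DKO minus KO median turns from 0.24 to -0.37.

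Mrpl14, a protein of the large subunit on its face toward the small subunit, had the largest fold change. Its gene lies at chr17:45686322-45698495 on the plus strand (GRCm38). The signal was 95.6, 91.4 and 89.4 in C, 39.8 and 36.2 in KO and 66.4, 58.4 and 80.1 in DKO. All 3 groups were apart, with DKO between the others. It fell by 1.26 on the log2 scale (SE 0.165, adjusted p = 0.00101, limma) in KO relative to C, to 41.3% of the C mean. Mrps21, a protein of the small subunit with a bacterial counterpart, is encoded at chr3:95862634-95871519 on the minus strand. Its signal was 125, 126 and 115 in C, 56.1 and 47.3 in KO and 101, 94.4 and 119 in DKO. Both KO libraries were far below the rest, and DKO 3 lay within the C range. It fell by 1.23 (SE 0.164, adjusted p = 0.00104, limma) relative to C. These calls held for Mrpl14 and Mrps21 in all 22 alternative settings, with adjusted p-values up to 0.0402 and 0.0481 and log2 fold changes of -0.73 and -0.70 with scaling to total reads.

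Mrps35, a small-subunit protein found only in mitochondria, had a signal of 99.0, 92.6 and 88.6 in C, 40.5 and 43.4 in KO and 72.5, 61.4 and 89.8 in DKO. Mrpl28, a large-subunit protein with a bacterial counterpart, had 184, 171 and 180 in C, 86.6 and 76.0 in KO and 157, 123 and 178 in DKO. Mrps24, the counterpart of a bacterial protein at the entry of the mRNA channel, had 117, 107 and 105 in C, 56.5 and 51.7 in KO and 100.1, 78.3 and 101 in DKO. For each of these 3 genes the KO libraries lay below all the others and DKO 2 was the lowest of DKO. They fell by 1.14, 1.13 and 1.0 in KO relative to C (adjusted p = 0.00225, 0.00265 and 0.00288, limma). These 3 calls were lost only with scaling to total reads (adjusted p = 0.0871, 0.115 and 0.180). Mrps24 overlaps Urgcp on the same strand and Mrpl14 overlaps Tmem63b on the opposite strand, so reads of the pairs may not be fully separated. With Mrpl14 and Mrps21 these were the 5 called members at least 2-fold lower.

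The next 5 by size were Mrpl55 (-0.98, adjusted p = 0.0109, limma), Mrps9 (-0.98, adjusted p = 0.0100), Mrpl54 (-0.91, adjusted p = 0.00652), Mrps16 (-0.90, adjusted p = 0.0145) and Mrpl30 (-0.89, adjusted p = 0.0104). Mrps9 is the counterpart of a bacterial protein whose tail reaches the P site, and Mrpl54 is found only in mitochondria. For Mrps9 the signal was 87.8, 85.8 and 84.4 in C, 45.1 and 41.3 in KO and 66.2, 44.9 and 78.8 in DKO. DKO 2 thus had a level of Mrps9 like that of the KO libraries, while DKO 1 and 3 lay between KO and C. The calls of these 5 were lost in 3 to 5 of the 22 settings, scaling to total reads and the fit without KO 3 among them; without KO 1 those of Mrpl55, Mrps9 and Mrpl30 were lost, and without C 1 that of Mrps16. Among the other 27 called members were Mrpl11 (-0.83), part of the base of the stalk that binds translation factors, Mrpl2 (-0.81), which sits at the peptidyl transferase centre, Mrps12 (-0.72), a protein of the decoding centre, and Mrpl58 (-0.70), a peptidyl-tRNA hydrolase built into the large subunit. These 4 were chosen for their known roles after their values were seen.

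**Figure D2:**
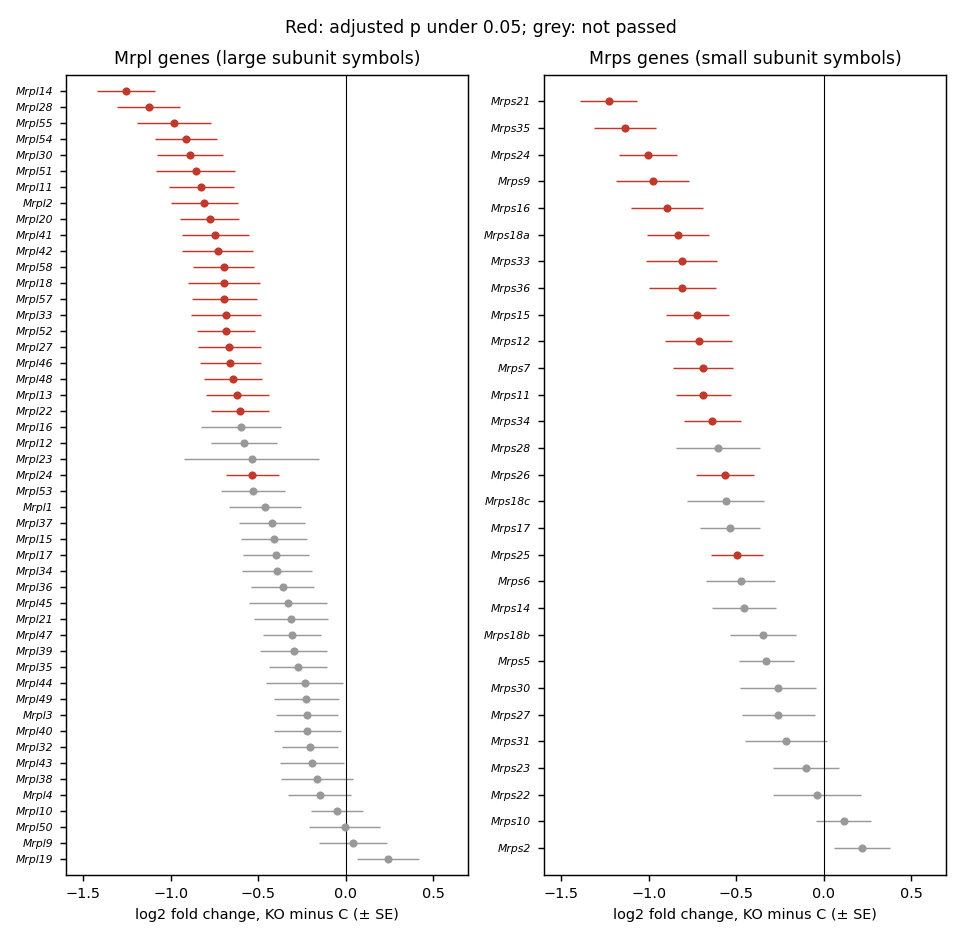
Log2 fold change of KO minus C with its SE for each Mrpl and Mrps gene on the deposited scale, in red where the adjusted p was under 0.05. The values run from -1.26 for Mrpl14 to 0.24 for Mrpl19, and 37 genes are red, all lower in KO; with scaling to total reads 5 are called, 3 higher and 2 lower.

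At the other end, the 3 members with a fold change nearest zero were Mrpl50, Mrps22 and Mrpl9. Mrpl50, a large-subunit protein found only in mitochondria, had 24.2, 26.1 and 22.5 in C and 23.8 and 24.4 in KO. Mrpl9, whose upstream sequence is shown above, had 46.9, 54.3 and 49.3 in C and 53.0 and 50.1 in KO. Mrps22 had 8.60, 7.68 and 8.87 in C and 7.77 and 8.51 in KO. In these 3 genes both KO libraries lay within the range of C. Log2 fold changes above zero were those of Mrpl19 (0.24, adjusted p = 0.405, limma), Mrps2 (0.22, adjusted p = 0.397), Mrps10 (0.11, adjusted p = 0.677) and Mrpl9 (0.04, adjusted p = 0.917). Mrps2 had 17.7, 19.0 and 17.7 in C and 21.0 and 21.5 in KO. Both KO libraries were thus above C, without a call on the deposited scale. With scaling to total reads 3 members were called higher in KO, 1 Mrpl and 2 Mrps genes.

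**Figure D3:**
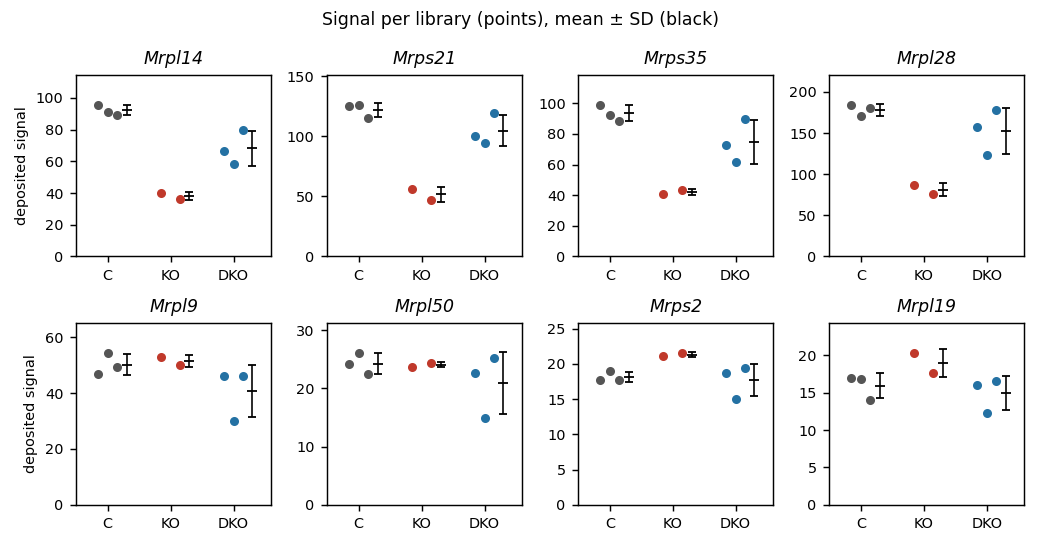
Deposited signal per library (points) with mean ± SD (black). Shown are the 4 members with the largest KO minus C fold changes and 4 members without a call on the deposited scale. The KO points of Mrpl14, Mrps21, Mrps35 and Mrpl28 lie below every C and DKO point. Those of Mrpl9, Mrpl50, Mrps2 and Mrpl19 do not. With scaling to total reads Mrps35 and Mrpl28 lose their calls, and 3 of the 78 members are called higher in KO.

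Both subunits had lower members in KO on the deposited scale, whereas with scaling to total reads each had 1 lower member, beside 1 higher Mrpl and 2 higher Mrps genes. Of the Mrpl genes 22 of 49 were lower (median -0.53), and of the Mrps genes 15 of 29 (median -0.56). Proteins are not always placed where their symbol says: Mrps18a and Mrps30 sit in the large subunit, and Mrps36 is a component of the 2-oxoglutarate dehydrogenase complex. By placement, 23 of 51 large-subunit and 13 of 26 small-subunit members were lower. Large-subunit members with a bacterial counterpart had 13 of 30 lower (median -0.54), and those found only in mitochondria had 10 of 21 (-0.53). In the small subunit the numbers were 8 of 16 (-0.64) and 5 of 10 (-0.42). No difference between these classes was tested. Mrps18a had 77.5, 74.2 and 72.3 in C, 42.3 and 40.7 in KO and 53.3, 47.9 and 71.8 in DKO. Mrps36 had 67.1, 67.7 and 60.1 in C, 39.7 and 33.8 in KO and 56.5, 39.3 and 60.1 in DKO. Mrps30 had 30.0, 38.2 and 35.3 in C, 27.8 and 29.2 in KO and 30.5, 19.0 and 32.9 in DKO. KO lay below C for all 3, by little in Mrps30.

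Level and transcript length moved with the fold change. Length here is that of each gene's longest annotated transcript, a protein-coding one where there is any. On the deposited scale, by mean signal, the highest 26 members held 20 of the 37 calls (median -0.77), the middle 26 held 13 (-0.58) and the lowest 26 held 4 (-0.30). The median SE was nearly the same in the 3 classes, 0.185, 0.186 and 0.187. Of the 26 members with the shortest transcripts (463 to 1056 bases) 19 were lower (median -0.70), and of the 26 with the longest (1962 to 7300 bases) 10 were (-0.43). Across members, Spearman's rho of the fold change was -0.53 with the mean signal and 0.37 with length (n = 78); across all genes rho with length was 0.28 (n = 13533). Genes share libraries and are not independent replicates, so these are descriptions. The members were shorter than other genes, with a median of 1328 bases against 3114. With the trend on length and GC content of all genes removed, 17 members were called and the median was -0.34.

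**Figure D4:**
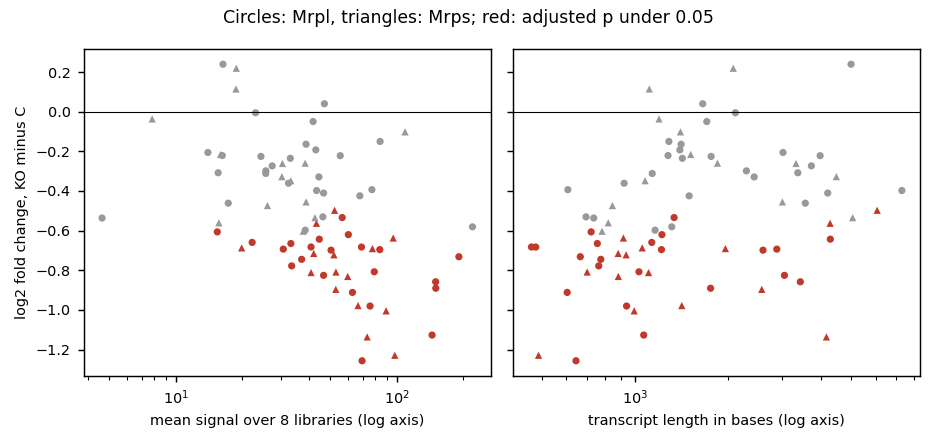
Log2 fold change of KO minus C on the deposited scale against mean signal over 8 libraries (left) and transcript length in bases (right), both on log axes, for Mrpl (circles) and Mrps genes (triangles), red where called. Points at high signal and short length lie lower, with a median of -0.77 in the third with the highest signal and -0.30 in the third with the lowest; with scaling to total reads the median of all 78 is -0.04.

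Per kilobase of transcript, mean signal over the 8 libraries was highest for Mrpl42 (287), Mrps21 (201) and Mrpl12 (167), and lowest for Mrpl32 (4.63), Mrpl47 (4.62) and Mrpl19 (3.27), an 87.9-fold range around a median of 28.0. Mrpl12 forms the flexible stalk that recruits translation factors. The length used is that of each gene's longest annotated protein-coding transcript, which need not be the one expressed, so these ranks depend on that choice. The values are per gene, so alternative transcripts of a gene enter the same level. Mrpl23 had 8.11, 2.08 and 7.69 in C and 2.81 and 3.87 in KO, with 1 C library below both. Its near copy Mrpl23-ps1 held much more signal, 97.4, 98.1 and 91.9 in C, 54.6 and 41.1 in KO and 87.7, 70.1 and 92.2 in DKO, so the level of Mrpl23 is uncertain. In all, 25 members overlap another gene of the table, 5 of them on the same strand, and 13 of the 25 were among the 37 called.

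The DKO libraries were compared with C, which shares its C libraries with the comparison above. No member was called (limma, adjusted), where 0.0812% of all genes were lower and 0.0738% higher. At an unadjusted p under 0.05, 12 members were lower and none higher, against 3.31% and 5.19% of all genes (8.5% in either direction). edgeR, DESeq2 and limma-voom also called none. The median log2 fold change was -0.24, against 0.01 over all genes, and it was negative for 76 of 78 members and 47.8% of all genes. For 22 of 78 members all 3 DKO libraries lay below all C libraries, against 7.25% of all genes. Mrpl53, a large-subunit protein found only in mitochondria, had the smallest p. All 900 bases of its gene overlap Gm42688 on the same strand, so its reads may not be fully separated. Its signal was 60.1, 59.0 and 53.7 in C, 43.2 and 36.1 in KO and 41.2, 31.0 and 45.9 in DKO, so DKO and KO overlapped below C (DKO minus C -0.55, SE 0.16, adjusted p = 0.452, limma).

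The DKO libraries differed among themselves. Relative to C, the members' median was -0.18 in DKO 1, -0.53 in DKO 2 and -0.05 in DKO 3, while over all genes it was 0.00, 0.07 and -0.01. DKO 2 was the lowest DKO library for 74 of 78 members and DKO 3 the highest for 67. DKO 2 was the lowest of all 8 libraries for 34 members, and a KO library was for 43. DKO 3 lay within the range of C for 37 members. Without DKO 2, the library with the largest mitochondrial-genome share, the DKO minus C median was -0.11. The summed signal was 4269, 3253 and 4718 in DKO 1, 2 and 3.

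DKO and KO were also compared, sharing their libraries with the comparisons above. On the deposited scale 10 of 78 members (12.8%) were higher in DKO and none lower, where 6.08% of all genes were higher and 5.73% lower (limma, adjusted). The median was 0.24 (0.01 over all genes), but it turned to -0.37 with scaling to total reads, with 12 members lower and none higher, and to -0.09 with reads outside the mitochondrial genome, with 1 higher and 3 lower. The median of all genes moved to -0.57 and -0.33 with those scalings, and calls over all genes from 823 higher and 776 lower to 206 and 5999, and to 396 and 3372. Relative to the median of all genes, the members' median was 0.24, 0.20 and 0.23. The 10 members were Mrps21 (1.0, SE 0.164, adjusted p = 0.00355, limma), Mrpl28 (0.89), Mrpl14 (0.82), Mrps35 (0.80), Mrps24 (0.77), Mrpl30 (0.75), Mrpl20 (0.70), Mrpl54 (0.68), Mrpl52 (0.66) and Mrps34 (0.64). All 10 were among the 37 lower in KO than in C, a comparison that shares the KO libraries. Each of the 10 calls in DKO versus KO was lost in 3 to 10 of the 22 settings. Mrps34 overlaps Nme3 on the same strand and Mapk8ip3 on the opposite strand, so its reads may not be fully separated. For Mrps21, with 56.1 and 47.3 in KO and 101, 94.4 and 119 in DKO, the groups did not overlap. For 29 of 78 members all DKO libraries lay above both KO libraries, against 20.5% of all genes. The number called was 6 without C 2, 33 without DKO 2 and 1 with only the DKO and KO libraries fitted. Over all genes 1123, 1991 and 730 were called in those fits, against 1599 with every library. Without KO 3 or KO 1, which leaves 1 KO library, the members' median was 0.21 or 0.35.

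**Figure D5:**
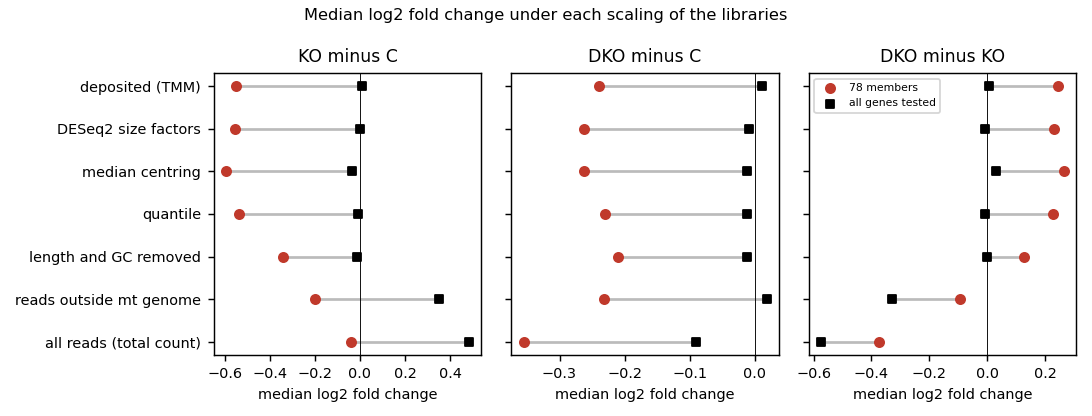
Median log2 fold change of the 78 members (red circles) and of all genes tested (black squares) for each comparison under 7 scalings or corrections. The gap between the symbols is -0.56, -0.52 and -0.55 for KO minus C on the deposited scale, with total reads and with reads outside the mitochondrial genome; the members' own DKO minus KO median turns from 0.24 to -0.37 and -0.09 with those last 2.

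Of 5 mitochondrial ribosomal proteins with other names, 3 were lower in KO than in C on the deposited scale, and none was called with scaling to total reads. Gadd45gip1, a large-subunit protein near the exit of the nascent chain, had 102, 94.9 and 93.0 in C, 57.2 and 52.6 in KO and 88.4, 64.4 and 104 in DKO, and fell by 0.81 in KO relative to C (adjusted p = 0.0176, limma). Chchd1, a small-subunit protein, had 74.2, 68.3 and 71.0 in C, 38.3 and 31.9 in KO and 58.6, 45.6 and 55.1 in DKO. It fell by 1.0 in KO relative to C (adjusted p = 0.00272, limma) and was 0.58 higher in DKO than in KO (adjusted p = 0.0383). The DKO versus KO call of Chchd1 was lost without C 1, C 2, C 3, DKO 1, DKO 3, KO 1 or KO 3 (adjusted p = 0.0652 to 0.290, limma), with only those groups fitted (0.135), with DESeq2 size factors (0.0501), with reads outside the mitochondrial genome (0.409) and after removal of the trend on length and GC (0.443). Aurkaip1, another small-subunit protein, fell by 0.71 in KO (adjusted p = 0.0109, limma). Dap3, a GTP-binding small-subunit protein, had -0.56 (adjusted p = 0.0602, limma) and Ptcd3, which binds RNA, -0.29 (adjusted p = 0.353). The call of Gadd45gip1 was also lost without any 1 of the C or KO libraries (adjusted p = 0.0530 to 0.141), and that of Aurkaip1 without KO 3 (adjusted p = 0.116). In DKO minus C all 5 had negative values and none was called by limma, with 1 lower at an unadjusted p under 0.05.

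Other genes that serve the mitochondrial ribosome were counted from lists, to be read against all genes tested. On the deposited scale, 7.01% of all genes were lower in KO than in C and 6.9% were higher. With scaling to total reads, 195 of the 13544 genes tested were lower in KO than in C and 4611 higher. In DKO relative to KO, 6.08% were higher and 5.73% lower on the deposited scale. With total reads, 206 genes were higher there and 5999 lower. Of 28 tested assembly factors, 5 were lower in KO than in C on the deposited scale and none higher (median -0.20), but with scaling to total reads 1 was higher and none lower (median 0.26). They were Mtg2 (-0.96), a GTPase of large-subunit assembly, Rbfa (-0.93), which acts on the small-subunit RNA, Malsu1 (-0.79), a factor of the large subunit, Mterf4 (-0.76), which partners an RNA methyltransferase, and Mrm2 (-0.57), a methyltransferase of the large-subunit RNA. The Malsu1 call was lost without KO 3 (adjusted p = 0.0831), and that of Mterf4 without C 1, C 3, KO 1 or KO 3 (adjusted p = 0.0675 to 0.201). Of these, Mterf4 (1.09), Mtg2 (0.88) and Rbfa (0.80) were higher in DKO than in KO on the deposited scale; with total reads 9 of the 28 were lower there and none higher. In that comparison the Mterf4 call was lost without KO 3 (adjusted p = 0.0815, limma), that of Mtg2 without KO 1 (0.0715) and that of Rbfa without KO 1 or KO 3 (0.0861 and 0.0549). Of 14 translation factors, Tufm (-0.83), the elongation factor that brings aminoacyl-tRNA, and Metap1d (-0.79), a methionine aminopeptidase, were lower in KO, with a list median of -0.14; with total reads 1 factor was higher, none lower and the median was 0.38. The Tufm call was also lost without any 1 of the C or KO libraries (adjusted p = 0.0739 to 0.224), and that of Metap1d without KO 3 (adjusted p = 0.122). Of 20 genes of mitochondrial RNA synthesis and stability, Hsd17b10 (-1.02), a subunit of mitochondrial RNase P, and Slirp (-0.90), which protects mRNA, were lower (10% of the list, near the share over all genes); with total reads 5 genes of this list were higher and none lower. Those calls were lost too without KO 3 (adjusted p = 0.0621 and 0.218), that of Hsd17b10 without KO 1 (adjusted p = 0.0783) and that of Slirp without C 1 or C 2 (adjusted p = 0.0673 and 0.0594). Of 9 regulators of mitochondrial gene expression only the coactivator Pprc1 passed, higher in KO (0.66, adjusted p = 0.0216, limma), with 11.5, 8.89 and 10.6 in C and 16.3 and 17.3 in KO. Its call was lost without C 2, C 3, KO 1 or KO 3 (adjusted p = 0.0591 to 0.160) and with the replicate block (adjusted p = 0.0502), and 3 of the 9 were higher with total reads. In DKO relative to C none of these lists had a call by limma, and at an unadjusted p under 0.05 the assembly factors had 1 lower, the translation factors 3 lower, the RNA genes none and the regulators 1 lower.

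The RNA of the mitochondrial genome, which this ribosome contains and reads, spread more widely. The small-subunit ribosomal RNA mt-Rnr1 had 5155, 3909 and 4225 in C, 1410 and 1701 in KO and 2752, 12434 and 5078 in DKO. KO lay below C (-1.51, adjusted p = 0.0684, limma), DKO spanned a wide range, and the DKO minus KO difference passed (1.85, adjusted p = 0.0355), though not without any 1 of the C or KO libraries (adjusted p = 0.0560 to 0.191), with the replicate block (adjusted p = 0.0825), with total reads (adjusted p = 0.0509) or with the DKO and KO libraries alone (adjusted p = 0.102). After removal of the trend on length and GC the mt-Rnr1 call was lost too (adjusted p = 0.0859, limma). The other mitochondrial ribosomal RNA, that of the large subunit, had -1.74 in KO minus C and 1.75 in DKO minus KO on the deposited scale. It had no call in either comparison. The libraries were made from polyadenylated RNA, which limits what a ribosomal RNA level shows. Of 13 mitochondrial mRNAs 5 were lower in KO than in C, among them mt-Co2 (-2.31) and mt-Co3 (-2.16), subunits of cytochrome c oxidase, and 5 were higher in DKO than in KO; with total reads the numbers were 3 and 4. Without KO 3 the mt-Co2 and mt-Co3 calls were lost in both comparisons (adjusted p = 0.168 to 0.228), and without C 1 or C 3 in KO versus C (adjusted p = 0.0559 to 0.0914). Without KO 1 the mt-Co3 call in KO versus C and the mt-Co2 call in DKO versus KO were lost (adjusted p = 0.0549 and 0.0552). After removal of the trend on length and GC both calls in KO versus C were lost (adjusted p = 0.0617 and 0.0717, limma). The mt-Co2 call in DKO versus KO was lost with quantile normalisation (adjusted p = 0.0761, limma). It was also lost with the replicate block (0.0590) and with only those groups fitted (0.0741). DKO 2 had the most signal from these mRNAs and the least from the 78 members among the DKO libraries.

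Set beside related families on the deposited scale, the members had a KO minus C median of -0.55, cytosolic ribosomal proteins -0.75 (54 of 84 lower) and complex I subunits -1.07 (32 of 38 lower, 1 higher). In DKO minus C the medians were -0.24, 0.03 and -0.36, and in DKO minus KO they were 0.24, 0.73 and 0.69. With scaling to total reads the KO minus C medians were -0.04, -0.22 and -0.53, with 1 higher and 1 lower cytosolic and 1 higher and 7 lower complex I genes, and the DKO minus KO medians were -0.37, 0.07 and 0.04. No difference between families was tested.

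Markers of cell types were counted in the same way, against the 7.01% of all genes lower and 6.9% higher in KO than in C. Those shares are for the deposited scale. Counts with total reads are to be read against 195 of the 13544 genes tested lower and 4611 higher. The summed signal of 10 cardiomyocyte markers was 64640 to 67951 in C, 40299 and 45108 in KO and 39874 to 65481 in DKO, and 1 of 10, Tnni3, a thin-filament protein, passed as lower in KO; with total reads none passed and the median turned from -0.46 to 0.08. In DKO 2, where the members were lowest among DKO, that sum was also the lowest. Of 8 fibroblast markers 3 were higher in KO than in C, with sums of 1137 and 1473 in KO, 512 to 767 in C and 538 to 1220 in DKO. Of 5 tested epicardial markers (7 listed) 3 were higher in KO, and 1 of 8 macrophage markers, or 3 of 5 and 7 of 8 with total reads. Of 12 skeletal muscle markers 11 were lower in KO and 7 in DKO than in C, with median log2 fold changes of -3.92 and -2.83. Their sums, carried mainly by the muscle creatine kinase Ckm and the skeletal actin Acta1, which was 285 to 518 in C and 2393 and 1564 in KO (no call), were 4295 to 5280 in C, 3323 and 3843 in KO and 2418 to 4921 in DKO. Of the other lists, atrial (1 of 5), endothelial (1 of 7) and adipocyte markers (1 of 3 tested) had a lower call in KO, and mural, lymphocyte and erythroid markers had none. With total reads 1 atrial, 1 endothelial and 2 mural markers were higher instead. The part of these marker values in those of the 78 members was not tested.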

How the data were processed

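Polyadenylated RNA of ventricular tissue was sequenced in 8 libraries. Per the submitters' processing notes, the authors used cutadapt, RSEM 1.3.1, limma and GRCm38; for annotation and strand setting, nothing was given in the sources used here. The deposited signal was tested on the file and equals reads + 0.5 divided by an effective, TMM-scaled library size, times a constant, and 100% of values gave back a whole number of reads within 0.001. From it, log2(signal + 1) was fitted with limma 3.58.1 (R 4.3.3) with 3 group means over all 8 libraries (5 residual degrees of freedom), for 13544 genes with a signal of at least 1 in at least 2 libraries, with Benjamini-Hochberg adjustment over all of them and a threshold of 0.05. Fold changes are on this scale and understate changes of low genes. The fit was run on simulated counts with equal spread in every library and with the library sizes known. In the data the spread differed between groups and the scaling mattered, so that run does not check the calls reported here.

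Alternatives were edgeR 4.0.16 and DESeq2 1.42.0 on the recovered reads, limma-voom, other scalings, pseudocounts and filters, a replicate block, and each library left out. edgeR's quasi-likelihood test called 2036, 25 and 1678 genes in KO versus C, DKO versus C and DKO versus KO. Positions and lengths are from GENCODE M21, which matched 13671 of 13677 identifiers. The length of a gene is that of its longest protein-coding transcript, or of its longest transcript where none is protein-coding.

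Members named with values are, per comparison, the 10 with the largest called change in each direction or the smallest p, the 3 highest and 3 lowest per length, the 3 nearest zero in KO versus C, those placed outside the subunit of their symbol, and those under other names; of each other list, up to 4 called genes, and all 5 where 5 were called among assembly factors. Cell type and pathway lists were written by hand. The members, lists and motifs were chosen with earlier results of these data known.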

Additional observations from a re-analysis of the deposited data

How the results depend on the processing

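On the deposited scale and with DESeq2 size factors, median centring, quantile normalisation, either other pseudocount, no filter, edgeR, DESeq2 or limma-voom, the number of members called and their median kept their direction and stayed within the limits set for a like value in all 3 comparisons. For KO versus C the exceptions were total reads (5 called, median -0.039) and reads outside the mitochondrial genome (8, -0.20). Removal of the length and GC trend (17, -0.34) was another. Without 1 C or DKO library up to 48 members were called, where 899 to 2966 of all genes were. For DKO versus KO the exceptions were total reads (12, all lower, median -0.37) and reads outside the mitochondrial genome (4, -0.094). The length and GC trend (5) and only the groups compared (1) were others. Leaving out a library gave medians of 0.15 to 0.41. Without 1 C or DKO library up to 33 members were called, where 1123 to 1991 of all genes were. DKO versus C had 0 calls under every setting run, and its median was -0.35 to -0.11 with a library left out. Single genes that turned direction in DKO versus KO were Mrpl52 (-0.065, length and GC trend), and, with total reads, Mrps34 (-0.013) and Chchd1 (-0.064). A replicate block gave 36, 0 and 12 calls with medians of -0.62, -0.24 and 0.35. Deviations of same-numbered libraries correlated weakly and not always positively. The values were 0.191, -0.274 and 0.140 for C and DKO, 0.218 and 0.140 for C and KO, and -0.0123 and 0.104 for DKO and KO. Not every library correlated best with its own number. The deviations of the 2 KO libraries mirror each other (0.218 and -0.218 with C 1), so these values cannot settle whether the numbers mark pairs. The numbers were not taken as pairing. Where the table does not show it, the cause was not tested. Each member had 34 or more reads in every library; the effect of depth on the calls was not tested.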
